A study of Mus musculus with 12 samples.

Results

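The endothelial junction and surface genes are 10 genes whose proteins hold the cells of blood vessel walls together or sit on or leave their surface, namely Pecam1, Cdh5, Esam1, Cldn5, Robo4, Emcn, Icam2, Cd34, Vwf and Plvap. They were taken as every probe that the array annotation names after them, with Esam written as Esam1, which gave 14 probes among the 41174 of the array and 10 genes among the 22410 with a name.

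Vessels are lined by endothelial cells that meet at adherens junctions, built on VE-cadherin (Cdh5), and at tight junctions, sealed by claudins such as Cldn5. Immunoglobulin-like molecules (Pecam1, Esam1) bridge the same contacts, and leukocytes use them and Icam2 to hold to the wall or cross it. The luminal face carries sialomucins (Cd34, Emcn) and guidance receptors (Robo4), and the cells store von Willebrand factor (Vwf) and close their fenestrae and caveolae with diaphragms of Plvap. In lung, the alveolar capillary bed makes endothelium a large share of the tissue, and Vwf is known to be stronger in larger vessels than in the alveolar capillaries.

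Messenger RNA of lung tumours labelled KO for Dnmt3a, which encodes a DNA methyltransferase, was compared with that of tumours labelled WT on 12 two-colour Agilent arrays. Each array carried both RNAs in different dyes. The mice were C57/129 animals with the K-ras LSL-G12D allele, so both groups carry activated K-ras after Cre, and the KO animals also carried conditional Dnmt3a alleles. Cre came from an adenovirus given into the airways, so recombination is limited to the cells that took up the virus, and a tumour sample also holds vessel and other stromal cells. Cy5 marked the KO RNA on 6 arrays and Cy3 on the others. The ages and sexes in the labels form 4 pairs, called A to D here. Pair A (replicates 1 to 4, slide 1) had a KO animal aged 47.7 and a WT animal aged 42.6. In pair B (replicates 5 to 8, slide 2) the ages were 27 for KO and 41.3 for WT. Pair C (replicates 9 and 10) had 27 for KO and 47.6 for WT, with a female WT animal. Pair D (replicates 11 and 12) had 29.1 and 37.3, and both C and D were on slide 3. The labels give no unit of age. The KO animal was the younger in pairs B, C and D and the older in pair A, so age and genotype cannot be told apart within any pair. KO RNA of pair C was in Cy5 on both arrays and that of pair D in Cy3 on both.

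The arrays are called biological replicates in the design text, but nothing says that arrays of 1 pair hold different animals, and pairs B and C may share a KO animal. The p-values therefore measure only how far these samples spread, and that spread may be technical. On slides 1 and 2, 81.6% to 89.6% of probes were well above background in either dye, while slide 3 had 57.6% to 71.3%. All 3 probes of Dnmt3a were lower in KO, with log2 ratios of KO over WT of -0.55 ± 0.075, -0.25 ± 0.049 and -0.21 ± 0.045 (SE, n = 12 arrays) and adjusted p of 0.00264, 0.0158 and 0.0217 in limma's fit. Whether these probes lie in the deleted part of Dnmt3a was not checked.

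RefSeq promoters (assembly GRCm38.p6) were given for 4 of the 10 genes and are shown because each of the 4 was called lower in KO. Each runs 5′ to 3′ from 250 bases before the gene's start to 50 after it, on the plus strand. Capitals mark GGAA or its reverse complement TTCC, the core letters bound by ETS factors, a family with known roles in endothelial gene expression.
Cd34, chr1:194938571-194938870: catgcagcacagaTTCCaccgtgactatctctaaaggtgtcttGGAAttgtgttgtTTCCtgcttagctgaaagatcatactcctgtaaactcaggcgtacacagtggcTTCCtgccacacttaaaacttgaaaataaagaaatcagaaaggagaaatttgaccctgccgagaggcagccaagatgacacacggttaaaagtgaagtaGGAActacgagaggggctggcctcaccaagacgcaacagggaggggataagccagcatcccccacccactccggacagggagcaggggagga
Cldn5, chr16:18776597-18776896: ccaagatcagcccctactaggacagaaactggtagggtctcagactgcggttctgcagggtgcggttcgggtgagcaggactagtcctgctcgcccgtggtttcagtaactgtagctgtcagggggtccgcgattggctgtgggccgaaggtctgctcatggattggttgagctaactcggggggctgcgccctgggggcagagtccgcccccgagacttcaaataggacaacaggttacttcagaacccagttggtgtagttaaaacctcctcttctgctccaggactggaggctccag
Emcn, chr3:137340828-137341127: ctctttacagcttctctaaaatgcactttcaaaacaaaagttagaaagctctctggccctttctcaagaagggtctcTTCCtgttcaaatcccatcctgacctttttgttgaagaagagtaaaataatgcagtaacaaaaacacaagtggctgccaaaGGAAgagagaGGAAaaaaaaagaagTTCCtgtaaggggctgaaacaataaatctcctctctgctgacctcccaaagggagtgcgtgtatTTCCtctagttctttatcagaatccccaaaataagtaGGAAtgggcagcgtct
Robo4, chr9:37401722-37402021: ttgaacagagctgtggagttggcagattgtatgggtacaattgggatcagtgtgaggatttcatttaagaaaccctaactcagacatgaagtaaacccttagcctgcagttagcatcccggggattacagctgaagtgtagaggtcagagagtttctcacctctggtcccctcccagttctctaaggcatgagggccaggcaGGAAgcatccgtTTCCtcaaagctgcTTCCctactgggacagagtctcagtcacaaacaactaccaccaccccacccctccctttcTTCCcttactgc
Either strand counted, the Emcn window holds 6 of these cores, the Cd34 window 5 and the Robo4 window 4, and the letters are not in the Cldn5 window. As many cores as in Emcn, Cd34 and Robo4 occur in 15.7%, 28.6% and 46.3% of the 32851 promoters of this length, and 96.0% hold at least 1. The windows also differ in CG dinucleotides, the sites that DNA methyltransferases modify. Cldn5 has 12 and a GC content of 58.3%, Cd34 has 7, and Emcn and Robo4 have 2 each, against a median of 7 over all promoters. A match is a description of the letters only, and no methylation was measured on these arrays.

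The genes as a group were lower in KO tumours. Of the 14 probes, 12 were well above background for KO or WT RNA on at least 6 arrays and entered the fit. Among these, 11 probes of 9 genes were lower in KO at an adjusted p under 0.05 in limma's fit over 35531 probes, and none was higher. Of all kept probes, 2.88% were called lower and 2.84% higher. The median log2 ratio of the 12 probes was -0.76, against -0.0026 over all kept probes. The ratio was below 0 in 141 of 144 measurements of 12 probes on 12 arrays, and 10 probes were below 0 on all 12 arrays, as were 1.00% of all kept probes. In these whole tumours, fewer endothelial cells and less RNA per endothelial cell cannot be told apart. When the mean of each pair was taken as 1 value, which leaves 4 values per probe, 2 of the 12 probes were called, Pecam1 (adjusted p = 0.0499) and Vwf A_51_P103406 (adjusted p = 0.0481), and the others had adjusted p of 0.0644 or more.

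**Figure D1:**
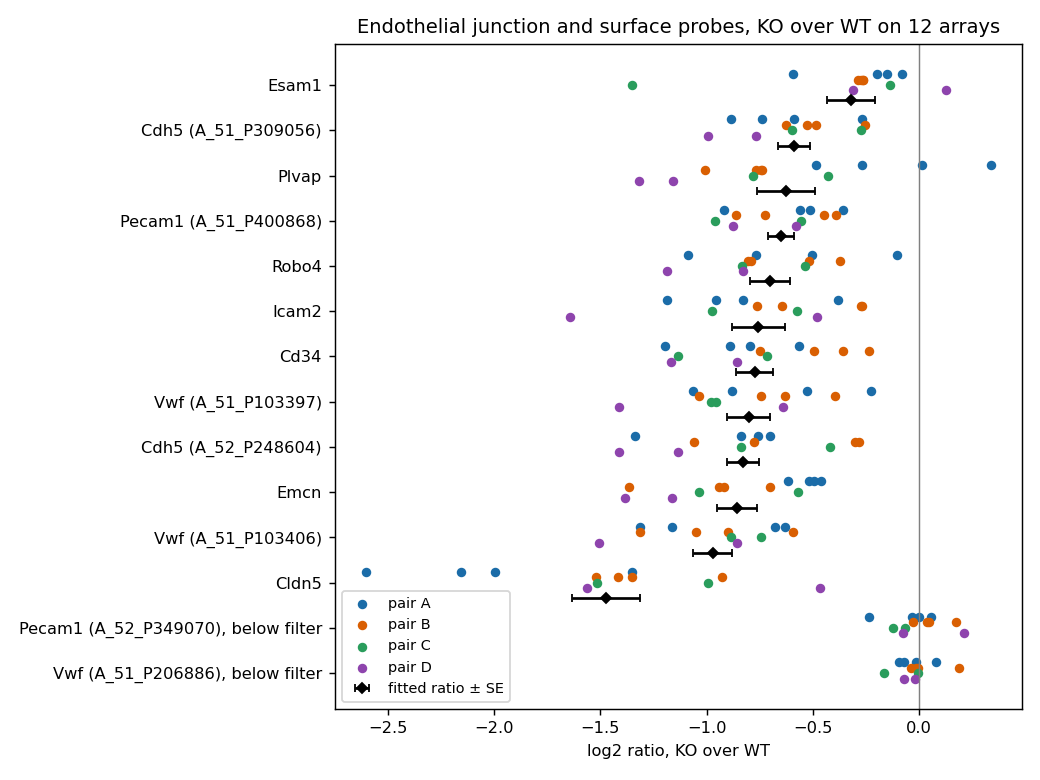
Log2 ratio of KO over WT (x axis) of every member probe (rows) on each of 12 arrays, coloured by pair, with the fitted ratio ± SE in black for the 12 probes that entered the fit. Points of 10 of these probes all lie left of 0, Cldn5 reaches furthest left, and the bottom pair of rows, probes not above background on enough arrays, scatter around 0.

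Among the junction proteins, Cldn5, the claudin that seals endothelial tight junctions, had the lowest ratio. Its probe A_51_P189814 (chr16:18327686-18327745, mm7, the build of the array annotation) had array ratios from -2.61 to -0.47 with a median of -1.47. The WT level lay between 10.6 and 12.8 (log2 intensity) and the KO level between 9.71 and 11.1, so the groups overlapped when arrays were pooled, while KO was below WT on each array. The fitted log2 ratio was -1.47 ± 0.16 (SE, n = 12), 2.78-fold lower, with an adjusted p of 0.000849. Cldn5 was the lowest of the 12 probes on 9 arrays, the exceptions being replicates 8 and 12, where Emcn was lower, and replicate 11, where Icam2 was.

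Cdh5, the cadherin of endothelial adherens junctions, has a pair of probes close together on chromosome 8. A_52_P248604 (chr8:102744763-102744822) had array ratios from -1.41 to -0.28 with a median of -0.81. Its fitted ratio was -0.83 ± 0.074, 1.77-fold lower, with an adjusted p of 0.000505. A_51_P309056 (chr8:102744103-102744162) ranged from -0.99 to -0.25 with a median of -0.59, and its KO levels (8.02 to 8.52) all lay below its WT levels (8.52 to 9.05), though the nearest values are equal at this rounding. Here the fitted ratio was -0.59 ± 0.075, with an adjusted p of 0.00193. The first probe was the lower of the pair on 9 of 12 arrays, with a mean difference of 0.24 over all arrays (SD 0.34). The exceptions, replicates 3, 5 and 7, all had KO RNA in Cy5. In the fit, the ratio of A_52_P248604 was 0.54 higher with KO in Cy5 than in Cy3, against 0.090 for A_51_P309056.

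Pecam1 (CD31), which joins endothelial cells at their contacts and is also made by platelets and leukocytes, had the smallest SE of the members. Its probe A_51_P400868 (chr11:106790116-106791969, minus strand) is printed 10 times on each array. Its array ratios ran from -0.96 to -0.36 with a median of -0.57. The KO levels (7.81 to 8.22) lay below all WT levels (8.34 to 8.95). The fitted ratio was -0.65 ± 0.059, 1.57-fold lower, with an adjusted p of 0.000505. The SD between array means was 0.21, and the median SD between spots of 1 array was 0.067, so the arrays differed from each other by more than the repeat spots did. Pecam1 was lowest on replicate 9 (-0.96) and highest on replicate 2 (-0.36).

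**Figure D2:**
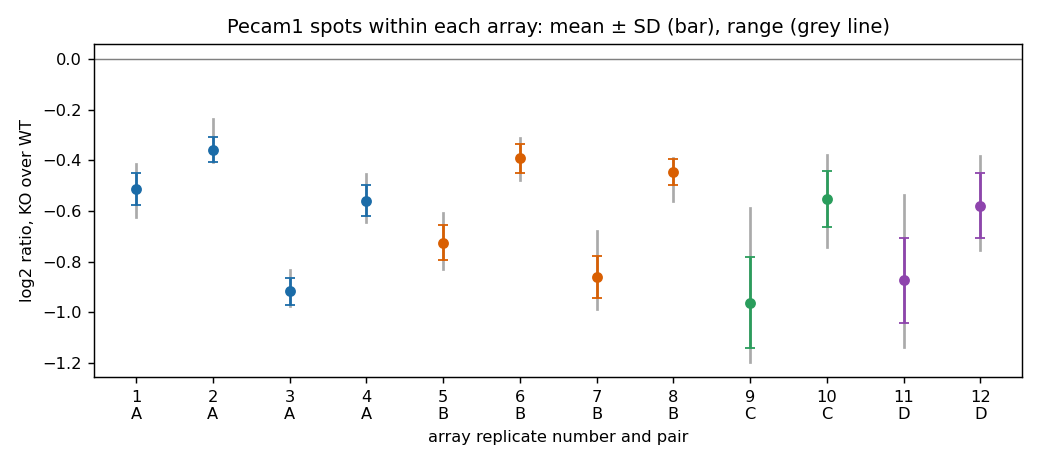
Log2 ratio of KO over WT of Pecam1 (y axis) on each array (x axis, replicate number and pair), as the mean ± SD over 9 or 10 spots with their range in grey. All spots lie below 0, and the means spread from -0.96 to -0.36 while the spots of an array usually stay close together.

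Esam1, an immunoglobulin-like molecule of endothelial tight junctions that platelets also carry, was the member that did not pass the test. Its probe A_51_P448325 (chr9:37466577-37466636) ranged from -1.35 on replicate 9 to 0.13 on replicate 11 with a median of -0.26, and was below 0 on 11 of 12 arrays. KO levels (10.8 to 12.1) and WT levels (10.9 to 12.3) covered nearly the same range. The fitted ratio was -0.32 ± 0.11 with a 95% interval of -0.57 to -0.072 and an adjusted p of 0.125. With pairs A and B alone, the ratio was -0.26 and the adjusted p 0.0428. In 29 of 30 alternative settings outside the within-slide fits Esam1 was not called, with an adjusted p of up to 0.613 (median centring).

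Among the surface molecules, Emcn (endomucin), a sialomucin of capillaries and veins, had array ratios from -1.39 to -0.46 with a median of -0.81 on A_51_P153124 (chr3:137226821-137226880). KO levels lay between 10.9 and 11.8 and WT levels between 11.7 and 12.5, with a small overlap. The fitted ratio was -0.86 ± 0.092, 1.81-fold lower, with an adjusted p of 0.000801. Cd34, a sialomucin that blood-forming progenitors and some fibroblasts also carry, ranged from -1.20 to -0.23 with a median of -0.77 on A_51_P204740 (chr1:194515494-194515553). Its fitted ratio was -0.77 ± 0.087, 1.71-fold lower, with an adjusted p of 0.00104, and the KO levels (12.5 to 13.6) overlapped the WT levels (13.4 to 14.4).

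Icam2, a ligand of the leukocyte integrin LFA-1 on resting endothelium, ranged from -1.64 on replicate 11 to -0.27 on replicates 5 and 7, with a median of -0.70, on A_51_P267754 (chr11:106486772-106486831, minus strand). The fitted ratio was -0.76 ± 0.12, 1.69-fold lower, with an adjusted p of 0.00645, and KO levels (10.2 to 11.7) overlapped WT levels (10.9 to 12.2). Robo4, a roundabout receptor of endothelium that limits vessel leak in mice, ranged from -1.19 to -0.10 with a median of -0.78 on A_51_P138939 (chr9:37342570-37342629). Its fitted ratio was -0.70 ± 0.095, 1.63-fold lower, with an adjusted p of 0.00273. KO levels of Robo4 (11.2 to 12.1) overlapped WT levels (11.8 to 12.5), mainly through replicate 1, where the ratio was nearest 0.

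Vwf, the glycoprotein that endothelium stores in Weibel-Palade bodies and that tethers platelets, was lower on both of its probes that were above background. A_51_P103406 (chr6:125708635-125708694) ranged from -1.51 to -0.59 with a median of -0.89, and its KO levels (10.5 to 11.5) lay below all WT levels (11.7 to 12.6). The fitted ratio was -0.97 ± 0.093, 1.96-fold lower, with an adjusted p of 0.000516. A_51_P103397 (chr6:125709328-125709387) ranged from -1.41 to -0.23 with a median of -0.81, and gave -0.80 ± 0.10, 1.74-fold lower, with an adjusted p of 0.00193. Levels of the 2 groups separated fully on 3 of the 12 probes, those of Pecam1, Cdh5 (A_51_P309056) and Vwf (A_51_P103406), as on 0.0591% of all kept probes.

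Plvap, which forms the diaphragms of fenestrae and caveolae, varied most in sign. Its probe A_51_P414653 (chr8:69965063-69965122, minus strand) ranged from -1.32 on replicate 11 to 0.34 on replicate 2 with a median of -0.74, and was below 0 on 10 of 12 arrays. The fitted ratio was -0.63 ± 0.14, 1.54-fold lower, with an adjusted p of 0.0257. The call was lost without replicate 7 (adjusted p = 0.0504), replicate 9 (0.0513) or replicate 12 (0.0583), and without pair B (0.183), C (0.0799) or D (0.0827). With pairs A and B alone, the Plvap ratio was -0.46 (adjusted p = 0.152).

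**Figure D3:**
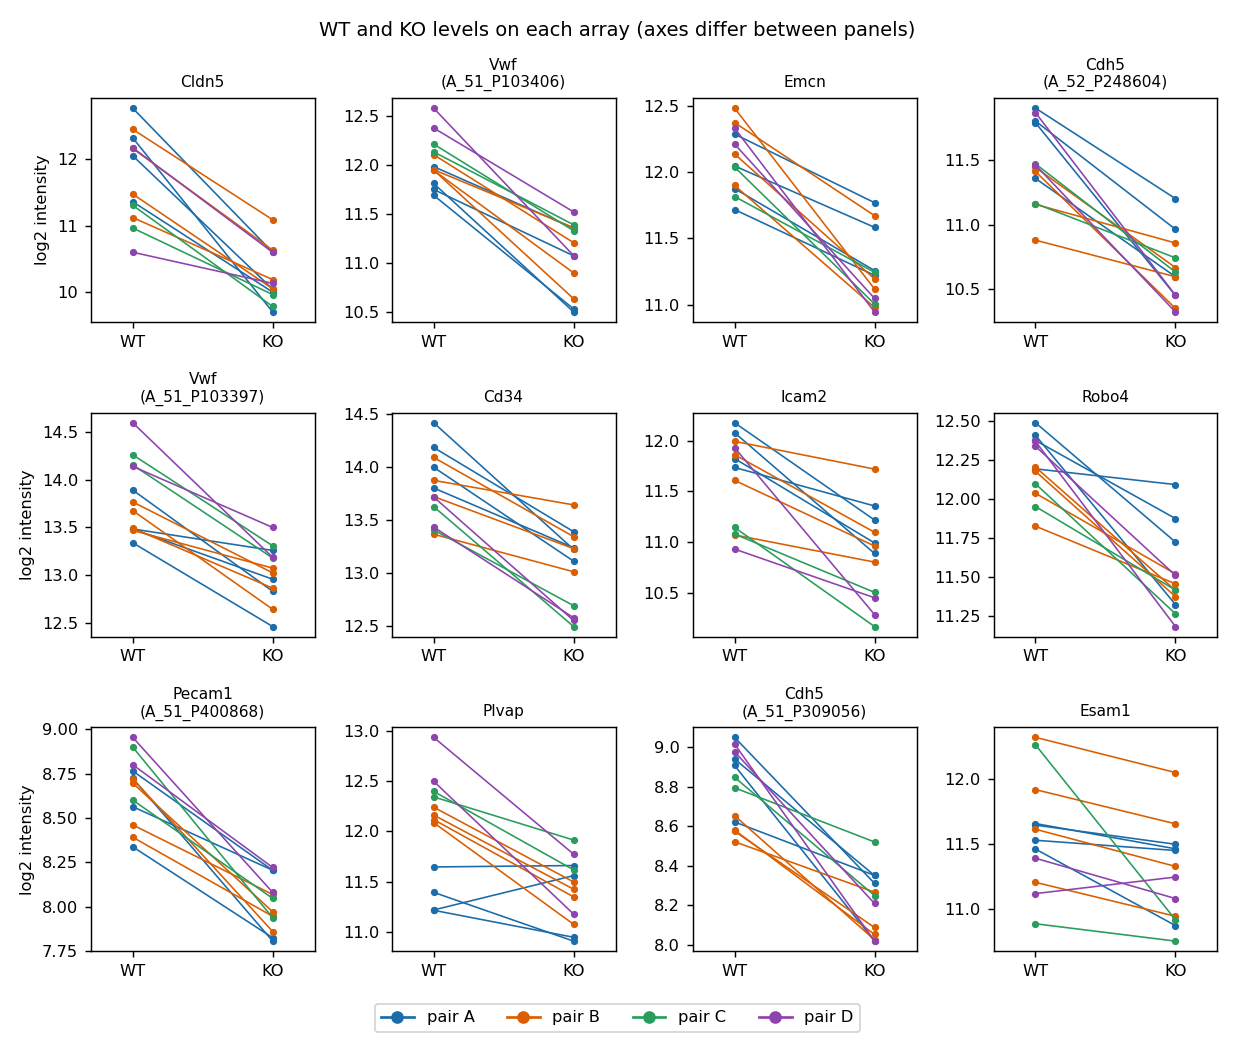
Log2 intensity (y axis, scaled per panel) of the WT and KO RNA of each array, joined by a line and coloured by pair, for the 12 probes that entered the fit. Most lines fall from WT to KO, those of Plvap in pair A are flat or mixed, and the Pecam1, Vwf (A_51_P103406) and Cdh5 (A_51_P309056) levels of the 2 groups do not overlap.

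The remaining probes of Pecam1 and Vwf were dim. Pecam1 A_52_P349070 (chr11:106790785-106790844), annotated to a cDNA clone, was well above background on 0 of 12 arrays for either RNA and had ratios from -0.23 to 0.21. Vwf A_51_P206886 (chr6:125627345-125627404), also annotated to a clone, was above background for KO RNA on 5 arrays and for WT RNA on 4, with ratios from -0.16 to 0.19. Fitted with no filter, they gave -0.0023 ± 0.037 (adjusted p = 0.984) and -0.019 ± 0.031 (adjusted p = 0.805). At background level a ratio near 0 says little about the transcript.

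The decrease was present in each pair. The median over the 12 probes of the pair means was -0.65 for A, -0.61 for B, -0.77 for C and -1.02 for D. All 12 probes were below 0 on every array of pairs B and C, and 11 were in pairs A and D, where the exceptions were Plvap in A and Esam1 in D. Within slide 1 (pair A), slide 2 (pair B) and slide 3 (pairs C and D) fitted alone, the medians were -0.65, -0.61 and -0.94. None of the 12 probes was called within a slide, with adjusted p from 0.104 to 0.729, 0.135 to 0.179 and 0.0924 to 0.485. Over the whole array these fits of 4 arrays called 0, 1 and 0 probes.

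Differences between pairs were tested with an F test over pair coefficients. None of the 12 probes passed at an adjusted p under 0.05, and 0.366% of all kept probes did. At an unadjusted p under 0.05, Plvap, Emcn and Cd34 passed, as did 12.5% of all kept probes. Plvap came nearest (F = 13.3, unadjusted p = 0.00128, adjusted p = 0.116). Its pair means were -0.099 ± 0.36 in A (SD, n = 4 arrays), -0.81 ± 0.13 in B (n = 4), -0.60 ± 0.25 in C (n = 2) and -1.24 ± 0.11 in D (n = 2). The WT level of Plvap was 11.4 in pair A and 12.2, 12.4 and 12.7 in B, C and D, whereas the KO level was 11.3, 11.3, 11.8 and 11.5. Emcn had means of -0.52 in A, -0.98 in B, -0.80 in C and -1.27 in D (adjusted p = 0.311).

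Cldn5 had its lowest mean in pair A, where Plvap and Emcn had their highest, with -2.03 ± 0.52 in A, -1.30 ± 0.26 in B, -1.26 ± 0.37 in C and -1.02 ± 0.78 in D. The F test, whose fit has a dye term, gave -1.04 for C and -1.23 for D (adjusted p between pairs = 0.406), so the order of these single-dye pairs is not settled. Cldn5 minus Plvap came to -1.93 in pair A, -0.49 in B, -0.65 in C and 0.22 in D, and this contrast was noticed in the data and was not tested. Pair A is also the only pair whose KO animal was the older, and it fills slide 1 alone.

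**Figure D4:**
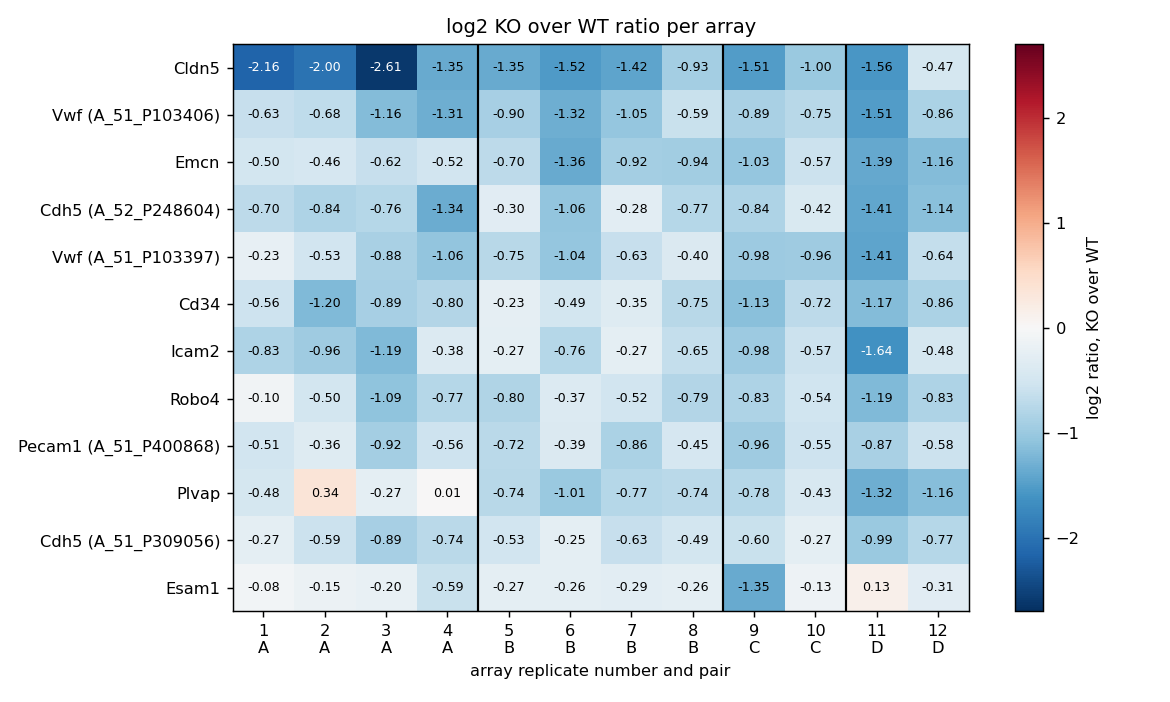
Log2 ratio of KO over WT for each probe that entered the fit (rows, ordered by fitted ratio) on each array (columns, replicate number and pair), with blue below 0 and red above. Cldn5 is darkest on replicates 1 to 3, and the cells above 0 are Plvap on replicates 2 and 4 and Esam1 on replicate 11.

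The probes did not move as 1 unit from array to array. Over 66 pairs of probes and 12 arrays, Pearson's r had a median of 0.30 and ran from -0.45 (Cldn5 and Plvap) to 0.88 (Emcn and Plvap), with 54 above 0. The Vwf probes had r = 0.83 with each other, and Cdh5 A_51_P309056 and Robo4 had r = 0.84. Against the mean of the other members, r was highest for Icam2 (0.69), Vwf (0.60) and Robo4 (0.57) and near 0 for Esam1 (0.024) and Cldn5 (-0.081). Arrays of a pair share slide and perhaps RNA, so these are descriptions with no p.

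The 6 non-member genes whose ratios followed the member mean most closely, among 16694 candidates over 12 arrays, were Hsd11b1 (r = 0.900), Mid1ip1 (0.891), Col13a1 (0.890), Klhdc9 (0.887), Mmrn2 (0.884) and Adora2b (0.868). Likeness over arrays is not the same as being lower in KO. Hsd11b1 (log2 ratio -0.79, adjusted p = 0.00547) and Mmrn2, an extracellular matrix protein of endothelium (-0.97, adjusted p = 0.00159), were called lower. Col13a1 (-0.60, adjusted p = 0.0532), Adora2b (-0.39, adjusted p = 0.264), Klhdc9 (0.33, adjusted p = 0.513) and Mid1ip1 (0.097, adjusted p = 0.796) were not called.

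Some members are neighbours on a chromosome, which the choice of genes did not use. The Robo4 and Esam1 probes lie 123.948 kb apart on chromosome 9 (mm7), and Robo4 was lower than Esam1 on 11 of 12 arrays, by 0.38 on average (SD 0.45). Of the 2 protein-coding genes that RefSeq places between them, Robo3 had a ratio of -0.011 ± 0.035 (adjusted p = 0.899) and Msantd2 was higher in KO at 0.27 ± 0.064 (adjusted p = 0.0330). The Icam2 and Pecam1 probes lie 303.285 kb apart on chromosome 11, and the genes between them, Ern1 (-0.0058 ± 0.070, adjusted p = 0.976) and Tex2 (0.21 ± 0.086, adjusted p = 0.191), did not pass the test.

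Genes that work with the members were then read from lists, with 1 probe per gene, the brightest. Of all 20583 named genes with a kept probe, 3.49% were called lower and 3.04% higher, with a median of -0.0056. Of 22 junction partners, 2 were lower and 0 higher, with a median log2 ratio of -0.12. Ptprb (VE-PTP), the phosphatase that binds VE-cadherin, fell by 1.24 (-1.24 ± 0.13, adjusted p = 0.000732). Jam2, a junctional adhesion molecule of endothelium, fell by 0.98 (-0.98 ± 0.20, adjusted p = 0.0186). The next by p were the gap junction protein Gja4 (-0.55 ± 0.15, adjusted p = 0.0586) and Rasip1, a Ras-interacting protein that vessel lumen formation needs in mice (-0.37 ± 0.11, adjusted p = 0.0691). Beta-catenin (Ctnnb1), which links cadherins to the cytoskeleton in epithelium too, had 0.082 ± 0.12 (adjusted p = 0.753), and the tight junction scaffold Tjp1 had -0.11 ± 0.11 (adjusted p = 0.641). Both were picked after their values were seen.

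Of 30 other endothelial surface genes, 29 had a kept probe, the exception being Sele, and 18 were lower and 0 higher, with a median of -0.58. The 4 of smallest p were Cd93, a lectin-like transmembrane protein of endothelium (-0.85 ± 0.061, adjusted p = 0.000352), and Adgrl4, an adhesion G protein-coupled receptor (-0.99 ± 0.086, adjusted p = 0.000505). They also held Nos3, the endothelial nitric oxide synthase (-0.58 ± 0.052, adjusted p = 0.000505), and Ramp2, the partner of the adrenomedullin receptor (-0.95 ± 0.096, adjusted p = 0.000732). Of both lists together, 20 genes were lower, against 11 with median centring in place of loess and 4 with pair means. The median of the other surface genes was below 0 on all 12 arrays, from -1.17 to -0.35, as was that of the members, from -1.35 to -0.50.

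**Figure D5:**
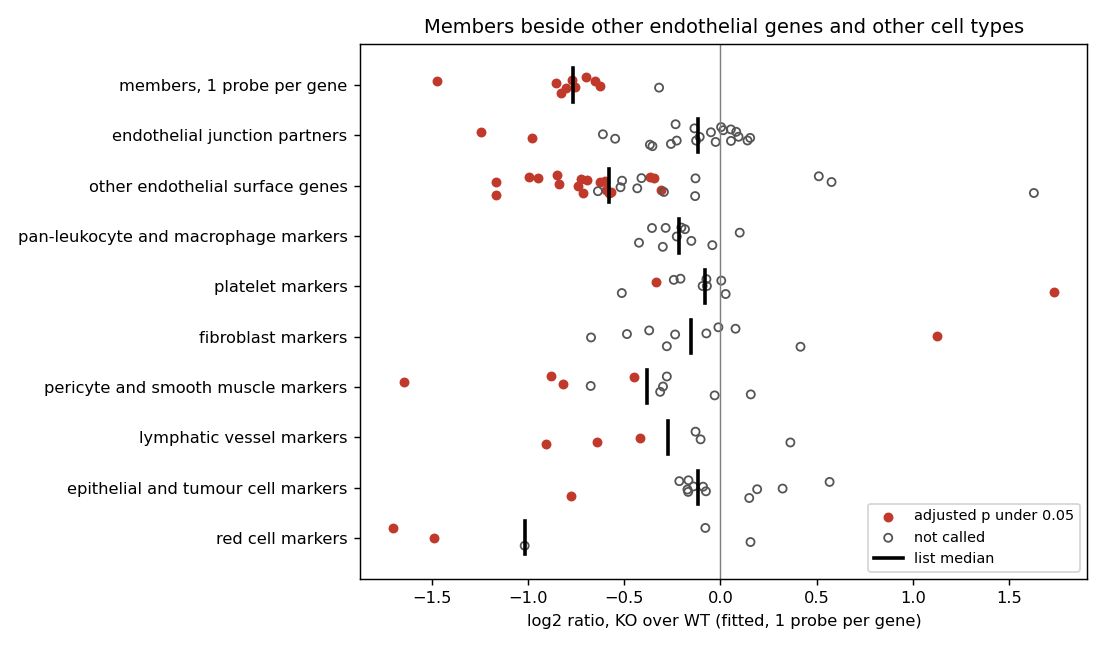
Fitted log2 ratio of KO over WT (x axis) of each measured gene, 1 probe per gene, in the members and in lists of other endothelial genes and of other cell types (rows), filled where the adjusted p was under 0.05, with the list's median as a bar. The members' median is -0.76, the other endothelial surface genes' -0.58 and the junction partners' -0.12.

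Markers of other cell types were read beside the members, and the part of each list in the result was not tested. The summed level of the members, each by 1 probe, was 28499 to 41835 in KO and 44990 to 69483 in WT (linear intensity). Such sums, here and in the lists below, weigh the brightest genes most. Among the members, Vwf and Cd34 had mean WT levels of 13.8 (log2 intensity), against 8.66 for Pecam1. Pericyte and smooth muscle markers fell in part, with 4 of 10 lower, none higher and a median of -0.38. These were Pdgfrb, the receptor that recruits pericytes to vessels (-0.88 ± 0.10, adjusted p = 0.00147), Notch3 (-0.82 ± 0.13, adjusted p = 0.00647), Rgs5 (-1.65 ± 0.31, adjusted p = 0.0132) and Cspg4 (-0.45 ± 0.11, adjusted p = 0.0393). The smooth muscle genes Acta2 (0.16, adjusted p = 0.499), Cnn1 (-0.030, adjusted p = 0.971), Tagln (-0.28, adjusted p = 0.338) and Myh11 (-0.30, adjusted p = 0.317) were not called. The summed level of the whole pericyte and smooth muscle list was 23503 to 31545 in KO and 29273 to 51304 in WT. Of 6 measured lymphatic vessel markers, 3 were lower, with a median of -0.27: Lyve1 (-0.91, adjusted p = 0.0118), Reln (-0.42, adjusted p = 0.0260) and Mmrn1 (-0.64, adjusted p = 0.0375). The lineage regulator Prox1, a defining lymphatic marker, had -0.10 (adjusted p = 0.644). Pdpn was above 0 (0.36, adjusted p = 0.301) and Flt4 below 0 (-0.13, adjusted p = 0.0597), and neither passed. The sums of the lymphatic list were 2086 to 3569 in KO and 2918 to 6395 in WT.

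Red cell markers had a median of -1.02, with Hba-a1 (-1.49, adjusted p = 0.0294) and Hbb-b1 (-1.70, adjusted p = 0.0472) lower among 5 and none higher. Their sums were 8471 to 68486 in KO and 25638 to 134730 in WT. By pair, their median was -2.16 for A, 0.11 for B, -1.28 for C and -0.85 for D. The members' medians, with 1 probe per gene, were -0.64 for A, -0.61 for B, -0.77 for C and -1.02 for D. How the red cell ratios relate to those of the members was not tested.

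Leukocyte and macrophage markers gave no call among 10, with a median of -0.21, and their sums overlapped (16149 to 34573 in KO, 14854 to 34833 in WT). The brightest of them were Tyrobp (0.10 ± 0.18, adjusted p = 0.817) and Coro1a (-0.042 ± 0.19, adjusted p = 0.931). The other leukocyte and macrophage markers ran from -0.42 (Laptm5) to -0.15 (C1qb), and Tyrobp alone was above 0. Of 10 platelet markers, Pf4 was higher (1.74 ± 0.41, adjusted p = 0.0330) and Gp9 lower (-0.33 ± 0.088, adjusted p = 0.0471), with a median of -0.083. Pf4, a chemokine of platelet granules, set the upper end of the platelet sums (4426 to 67853 in KO, 3904 to 24432 in WT), and 4 of the 10 were above background on all arrays. Of 10 fibroblast markers, Lum was higher (1.13 ± 0.30, adjusted p = 0.0494) and none lower, with a median of -0.15. The lowest fibroblast ratios, which did not pass, were Pdgfra (-0.67, adjusted p = 0.0607) and Col1a2 (-0.49, adjusted p = 0.215). Besides Lum, only Dcn (0.42, adjusted p = 0.284) and Pi16 (0.079, adjusted p = 0.863) were above 0. By pair, the fibroblast median ran from -0.80 in D to 0.12 in B. The fibroblast sums were 21842 to 86507 in KO and 15128 to 81947 in WT. Of 12 epithelial and tumour cell markers, Lamp3 was lower (-0.78 ± 0.19, adjusted p = 0.0429, fitted on 11 arrays) and none higher, with a median of -0.12 and sums of 432570 to 941990 in KO and 492830 to 972660 in WT. The highest ratios of these were Cldn3 (0.57 ± 0.15, adjusted p = 0.0536) and Nkx2-1 (0.32 ± 0.11, adjusted p = 0.0971), which did not pass. Measured markers are those with a probe well above background for KO or WT RNA on at least 6 arrays. In every list, each of them was so for KO RNA on at least some arrays, which that filter largely fixes.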

How the data were processed

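Spot intensities and local backgrounds were read from the scans by Agilent Feature Extraction (version 10.1.1.1, protocol GE2-v5_10_Apr08), per the file headers, and the deposited mean and background intensity values are not normalized. The deposited flags (0 or 1, unit other) mark spots above background or outlying. The series matrix holds the authors' deposited log2 ratios, for which the submitters' processing notes name limma. Their 41174 matched probes had column medians between -0.0111 and 0.00784, and their centring is unknown. Against the ratios made here from the scanner values, they were KO over WT on the log2 scale. There r was between 0.991 and 0.997 over the 35531 kept probes, so dim probes are not in this comparison. Processed intensity values, an alternative here, were background-subtracted and dye-normalized, per the file headers.

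From the deposited intensities, backgrounds were corrected with normexp (offset 50). Spots whose local background was flagged as outlying (878 to 1209 per array in red, 331 to 2067 in green) took the array's median of that dye. Loess within arrays gave weight 0 to control and outlier-flagged spots (86 to 828 per array), ratios were turned to KO over WT, and spots of a probe were averaged. Kept probes were above background for KO or WT RNA on at least 6 of 12 arrays. Levels came from loess and Aquantile, and are open to dye bias in pairs C and D. limma 3.58.1 (R 4.3.3, statmod 1.5.0) fitted the ratio with a dye term and the pair as a random block (correlation 0.0793), with Benjamini-Hochberg adjustment over all kept probes and a threshold of 0.05. The number of arrays limits the precision. The analysis was tested on simulated data.

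Probes were named through RefSeq accessions (22951) or by the file (11758), and 6465 had no name. The members, lists and tests were chosen with earlier results of these data known. Named were all members, the 4 list genes of smallest p per endothelial list, up to 3 called markers (otherwise the 2 brightest) per cell type, and the 6 genes most like the members. Cspg4 (to complete a count), Prox1, Ctnnb1, Tjp1, the neighbours on chromosomes 9 and 11 and the genes under other observations were added after values were seen. So were Laptm5, C1qb, Pdpn, Flt4, Cldn3, Nkx2-1, Acta2, Cnn1, Tagln, Myh11, Pdgfra, Col1a2, Dcn and Pi16. The replicate numbers 1 to 12 name arrays and pair none across groups, since KO and WT share each array. Alternatives covered background, normalization, filter, dye term, block, weights, variance model, threshold, arrays left out and the authors' ratios.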

Additional observations from a re-analysis of the deposited data

Results flagged for a closer look

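Within pair B, Plvap on replicate 6 stood apart from the other 3 arrays, with a log2 ratio of KO over WT of -1.01 against -0.77 to -0.74. Its gap to the nearest array was 0.89 of the range of the pair, above Dixon's 95% value for 4 arrays. This was 1 of 24 such checks (12 probes in pairs A and B), of which chance gives about 1.2.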

How the results depend on the processing

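The median of the member probes (main value -0.76) stayed below 0 in every alternative run, from -0.94 within slide 3 to -0.61 within slide 2, and from -0.79 to -0.70 with 1 replicate left out. The count of member probes called (11) was 10 or 11 with 1 replicate left out (10 without replicates 7, 9 and 12, each time through Plvap), and 8 with median centring, where Cd34 (adjusted p = 0.0503), Icam2 (0.0729) and Plvap (0.0728) were lost. It was 2 with pair means, which leave 4 values per probe, and 0, 0 and 0 within slides 1, 2 and 3, where fewer arrays enter. With no replicate block it was 11 again, with a median of -0.76, and the authors' log2 ratios also gave 11. Outside the within-slide fits, Pecam1 and Vwf A_51_P103406 were called in 30 of 30 settings and Plvap in 20. Icam2 was also lost without pair A (adjusted p = 0.0579). Of both endothelial lists together, 20 genes were lower in the main setting, 11 with median centring and 4 with the mean of each pair, and the cause was not tested. None of the results run under alternatives, those of the member probes, the count of calls in both endothelial lists, the between-pair test and the whole-array counts, reversed. The other cell type lists, the neighbours, the genes most like the members and Dnmt3a were run in the main setting only. Between pairs, 0 member probes passed in all 4 settings (smallest adjusted p 0.0657 to 0.155).

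Counts over the whole array also moved. The main count of 2033 (1025 lower) became 3269 with no replicate block, 486 with median centring, 51 with pair means, 448 at an adjusted p under 0.01 and 1525 (585 lower) with local backgrounds as deposited. It was 1256 with pairs A and B alone, 578 without pair A, 1192 without B, 1185 without C and 1268 without D. Without replicate 2, 3, 7 or 12 it was 1347, 1087, 1262 or 1053.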

Other observations

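Not all endothelial surface genes outside the members were lower. Vcam1, an adhesion molecule that inflamed endothelium and other cells put up for leukocytes, had a log2 ratio of KO over WT of 1.63 ± 0.48 (SE, n = 12 arrays), above 0 on 9 of 12 arrays, which did not pass in limma's fit (adjusted p = 0.0676). Tm4sf1 (0.58 ± 0.46, adjusted p = 0.540) and Procr, the protein C receptor (0.51 ± 0.33, adjusted p = 0.425), were also above 0 without passing. Icam1, like Vcam1 an inducible ligand of leukocyte integrins, had -0.43 ± 0.16 (adjusted p = 0.147). These genes were chosen after their values were seen.

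Thbd, the thrombomodulin of the vessel surface (-1.17 ± 0.21, adjusted p = 0.0111), and Calcrl, the receptor that pairs with Ramp2 (-1.17 ± 0.19, adjusted p = 0.00675), had the lowest ratios of that list and were below 0 on 12 of 12 arrays, also seen only after the fit. Of the receptors of vascular growth factors, Tek (-0.60 ± 0.098, adjusted p = 0.00665) and Tie1 (-0.57 ± 0.084, adjusted p = 0.00389) were lower, and Kdr (-0.51 ± 0.14, adjusted p = 0.0541) and Flt1 (-0.41 ± 0.15, adjusted p = 0.143) did not pass.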
